A study of Homo sapiens with 4 samples.

Results

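YBX1, YBX3, U2AF1, U2AF2, U2AF1L4, PUF60 and SF1 encode Y-box proteins and factors that recognise the 3′ end of introns. They were taken as a fixed list of 7 gene symbols, because these proteins have been linked to ILF2, and were found by Ensembl gene ID among the 63677 genes counted. All 7 passed the filter on low counts and were among the 19142 genes tested. RNA was sequenced from H929, an established multiple myeloma cell line. The groups were cells transduced with a short hairpin RNA against ILF2 (2 libraries) and cells transduced with a non-silencing short hairpin RNA (2 libraries). All 4 libraries come from this 1 line, and both groups carry a hairpin. The labels do not say whether replicates came from separate transductions, nor whether 1 hairpin or more was used against ILF2. The p-values therefore speak only to the spread among these libraries, which may be technical, and an effect of the hairpin on other RNAs cannot be told apart from one of ILF2.

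YB-1, the product of YBX1, binds RNA and DNA through a cold-shock domain and packages messenger RNA in the cytoplasm, and part of it acts in splicing in the nucleus. When an intron is to be removed, SF1 binds the branch point, the large U2AF subunit (from U2AF2) binds the pyrimidine-rich tract behind it, and the small U2AF subunit (from U2AF1) binds the AG at the intron's end. PUF60 is a relative of the large subunit that aids weak sites, and U2AF1L4 encodes a relative of the small subunit. Plasma cells, from which myeloma arises, splice large amounts of immunoglobulin RNA.

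The sequence these factors read is shown here by the 3′ end of the first intron in 5 of their own genes. Each line holds the last 20 bases of the intron and the first 3 of the exon, 5′ to 3′ on the gene's strand (GRCh37, canonical transcripts of GENCODE), with the closing AG of the intron in capitals.
YBX1 (chr1:43149054-43149076, plus strand): tgctttgttttcttttccAGcaa
U2AF2 (chr19:56170556-56170578, plus strand): ctcctctcacccttgcccAGagc
U2AF1 (chr21:44524510-44524532, minus strand): gctctcattttcccttacAGagt
U2AF1L4 (chr19:36236111-36236133, minus strand): tgtctttgcaccttttccAGggt
SF1 (chr11:64544096-64544118, minus strand): attttgtctctgccttttAGact
In the 18 bases before the AG, C or T made up 88.9% in YBX1 and U2AF2 and 83.3% in the other 3. The YBX1 site printed is at the top of that gene's range (50% to 88.9%). Its median over 7 introns was 66.7%, the lowest of the 7 genes, whose other medians ran from 77.8% to 88.9%. Over all 62 introns of the 7 genes the median share was 77.8%, ranging from 50% to 94.4%, and all 62 ended in AG. The median over 184830 introns of canonical protein-coding transcripts was also 77.8%, and 99.8% of those ended in AG.

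The ILF2 shRNA libraries held 63459322 and 71359863 fragments and the non-silencing libraries 72977082 and 71389341. ILF2 itself had 6821 and 7911 fragments in ILF2 shRNA cells, against 53115 and 52851 in non-silencing cells, a log2 fold change (log2 change in what follows) of -2.71 ± 0.07 (SE; adjusted p by edgeR, 9.2e-39), which fits the labels. The 8 plasma cell markers were all above 1 CPM (counts scaled to a common library size) in non-silencing cells. Of these 8, edgeR called 4 higher and 1 lower, beside 10.2% and 10.1% of all tested genes. The called markers included MZB1 with a log2 change of 0.48 and SDC1 with one of -0.24. Mitochondrial genes held 0.516% and 0.463% of fragments in the ILF2 shRNA libraries, against 0.351% and 0.307% in the non-silencing libraries. The 10 markers of other cell types summed to 17.4 and 18.3 CPM in ILF2 shRNA cells and 9.21 and 8.63 CPM in non-silencing cells. Nearly all of that was the T cell gene CD3E, with 16.6 ± 0.683 and 7.86 ± 0.514 CPM (SD, n = 2). It was called higher (log2 change 1.07, adjusted p by edgeR, 8.16e-14). The other T cell marker, CD3D, had 1 or 2 fragments a library, and 2 of the 10 had no fragment. The part of these shifts in the results below was not tested.

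With ILF2 reduced, 6 of the 7 genes did not change past the threshold. U2AF1L4, the least abundant, was higher. At an adjusted p under 0.05, with the quasi-likelihood test of edgeR over all genes, 1 of the 7 was higher and 0 were lower, while 10.2% of all tested genes were higher and 10.1% lower (20.3% together). Before adjustment, 1 was higher and 1 lower at that threshold, beside 15.5% and 15.4% of all tested genes. DESeq2 called 0 higher and 0 lower, against 9.48% and 8.77% of the genes it tested. The median log2 change of the 7 was -0.04, beside -0.0015 for all tested genes. Values were below 0 in 6 of the 7, against 9612 of all 19142 tested genes. The 2 groups of libraries did not overlap in 4 of the 7 genes, against 56.5% of all tested genes. In bulk RNA, fewer cells of a kind and less RNA per cell cannot be told apart.

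**Figure D1:**
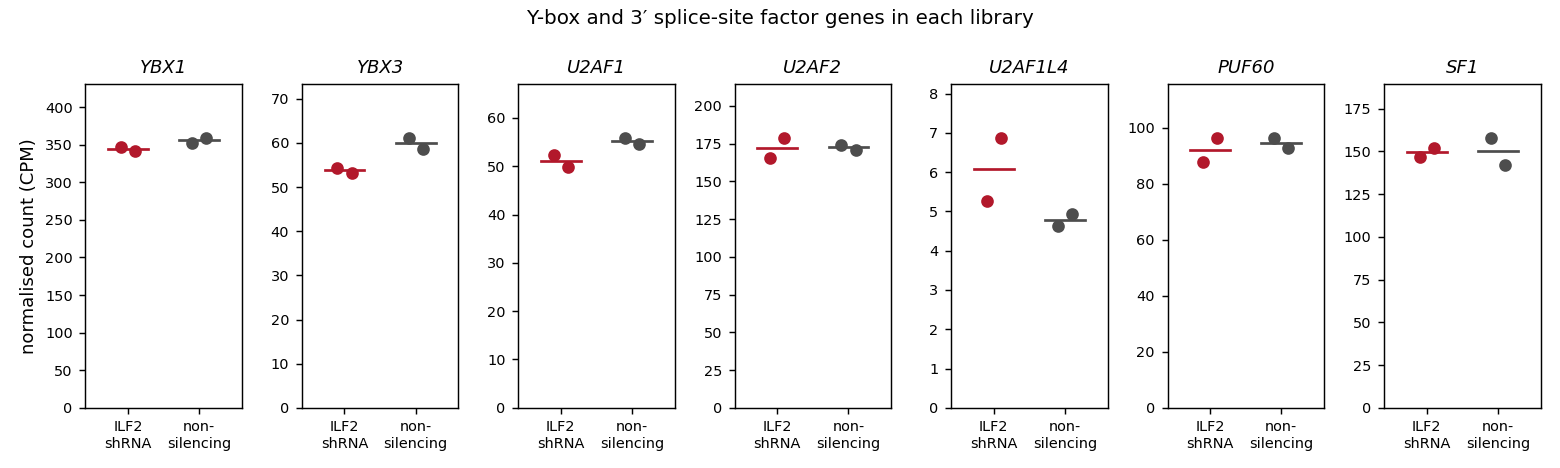
Normalised counts (CPM, vertical axes from 0, each gene on its own scale) of the 7 genes in ILF2 shRNA and non-silencing libraries. Points are libraries and bars are group means; the groups stand apart by the most, relative to level, in U2AF1L4, where ILF2 shRNA replicate 2 is highest at 6.88 CPM.

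YBX1 (ENSG00000065978, chromosome 1 of GRCh37, as for all positions given here, 43148098 to 43168020, plus strand) was the most abundant of the 7. It had 347 and 342 CPM in ILF2 shRNA cells, against 352 and 359 CPM in non-silencing cells. Both ILF2 shRNA libraries lay below both non-silencing libraries, by little. The means were 344 ± 4.10 and 356 ± 5.04 CPM (SD, n = 2), a log2 change of -0.05 ± 0.07 (SE; adjusted p by edgeR, 0.683). The 95% interval of the fold ran from 0.884 to 1.06. These values are of RNA, and the protein was not measured.

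YBX3 (ENSG00000060138, chromosome 12, 10851683 to 10875911, minus strand), which encodes the second Y-box protein of somatic cells, had 54.4 and 53.2 CPM in ILF2 shRNA cells. The non-silencing libraries had 61.2 and 58.7 CPM. The groups did not overlap here either. The log2 change was -0.16 (SE 0.07), with an interval of the fold from 0.812 to 0.991. Its p was 0.0331 before and 0.12 after adjustment over all genes (edgeR), so it was not called. Once trends with GC content and exon length were taken out, it was called lower (log2 change -0.14, adjusted p by edgeR, 0.0179) and U2AF1L4 higher, in a fit that called 14.8% of all genes lower and 16.0% higher (30.8% together).

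YBX1 has processed pseudogenes, copies of its spliced RNA that were inserted into the genome without introns, and these bear on its count. The 10 annotated copies took 12138 and 12466 fragments in the ILF2 shRNA libraries, against 22132 and 23637 for YBX1 itself. In the non-silencing libraries they took 14136 and 13760 fragments, against 26093 and 25895. Copies thus held 54.8% and 52.7% as many fragments as YBX1 in ILF2 shRNA cells and 54.2% and 53.1% in non-silencing cells, a share that was nearly the same in all 4 libraries. The fragments fell on the 3 copies most like YBX1, which are YBX1P1 (98.5% identical over the aligned bases), YBX1P10 (97.5%) and YBX1P2 (96.6%). YBX1P6, at 93.7%, had 14 to 39 fragments a library. The other 6 copies, at 81.4% to 86.8%, had 0 to 4.

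The likeness is shown by 60 bases across the junction of exons 1 and 2 of YBX1, the place where the first intron printed above has been removed. Capitals mark bases that differ from YBX1. All lines are 5′ to 3′ on the gene's strand (GRCh37), and the YBX1 line joins chr1:43148373-43148402 to chr1:43149074-43149103.
YBX1: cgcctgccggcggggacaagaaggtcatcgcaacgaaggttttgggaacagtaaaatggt
YBX1P10 (chr9:35972119-35972178, minus strand): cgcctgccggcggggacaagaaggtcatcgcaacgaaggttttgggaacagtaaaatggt
YBX1P1 (chr14:66480324-66480383, minus strand): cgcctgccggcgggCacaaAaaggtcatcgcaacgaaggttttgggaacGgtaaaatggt
YBX1P2 (chr7:105223477-105223536, minus strand): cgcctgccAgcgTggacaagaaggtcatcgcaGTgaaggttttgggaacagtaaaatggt
YBX1P10 has 0 differences in this stretch, YBX1P1 has 3 and YBX1P2 has 4. A read of 76 bases that crosses a junction must be split over an intron to be placed on YBX1 but lies unbroken on a copy. Of the 473 windows of 76 bases that cross a junction in spliced YBX1, 163 (34.5%) stand letter for letter in a copy. Within single exons, 322 of 1371 windows (23.5%) occur elsewhere in the genome. For the other 6 genes this share was 0.391% or less.

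**Figure D2:**
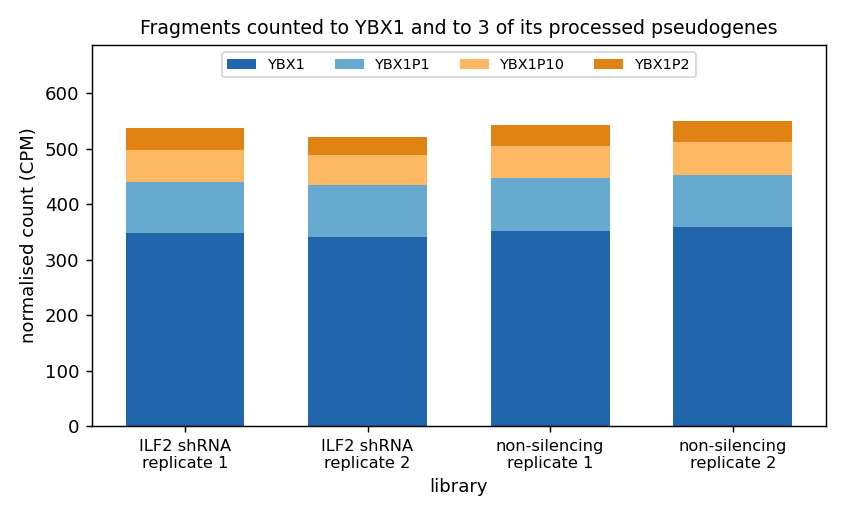
Normalised counts (CPM, vertical axis from 0) of YBX1 and of its 3 most counted processed pseudogenes, stacked, in each library. The share held by the pseudogenes is nearly the same in the 4 libraries, with YBX1P1 the largest of them.

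How many of these fragments came from YBX1 RNA cannot be read from the counts, and the level of YBX1 is uncertain to that extent. The comparison moved little. With the copies added to their parent genes, the log2 change of YBX1 was -0.05 (adjusted p by edgeR, 0.692). The copies had log2 changes of -0.0043 (YBX1P1, adjusted p by edgeR, 0.978), -0.09 (YBX1P10, 0.418) and -0.06 (YBX1P2, 0.672). YBX3 has 1 such copy, YBX3P1, with 137 and 163 fragments in ILF2 shRNA cells and 191 and 147 in non-silencing cells.

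Of the U2AF genes, neither subunit of the main heterodimer was called. U2AF2 (ENSG00000063244, chromosome 19, 56165512 to 56186081, plus strand) had 165.6 and 179 CPM in ILF2 shRNA cells, against 174 and 171 CPM in non-silencing cells. The 2 ILF2 shRNA libraries lay on either side of both non-silencing ones. The log2 change was -0.0014 ± 0.07 (SE; adjusted p by edgeR, 0.993), and the interval of the fold was 0.910 to 1.10. U2AF1 (ENSG00000160201, chromosome 21, 44513066 to 44527697, minus strand) had 52.3 and 49.9 CPM in ILF2 shRNA cells and 55.9 and 54.6 CPM in non-silencing cells. Both ILF2 shRNA libraries were the lower ones, with a log2 change of -0.11 ± 0.07 (SE; adjusted p by edgeR, 0.296) and an interval of the fold from 0.836 to 1.02.

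U2AF1L4 (ENSG00000161265, chromosome 19, 36233365 to 36236346, minus strand) was the exception. It had 336 and 476 fragments in ILF2 shRNA cells, against 342 and 356 in non-silencing cells, or 5.27 and 6.88 CPM against 4.62 and 4.94 CPM. Both ILF2 shRNA libraries were higher, replicate 2 by far more than replicate 1. The means were 6.07 ± 1.14 and 4.78 ± 0.229 CPM (SD, n = 2), a log2 change of 0.35 ± 0.12 (SE; adjusted p by edgeR, 0.0277), with an interval of the fold from 1.08 to 1.502. The call rests on few libraries. Without ILF2 shRNA replicate 2 the log2 change was 0.14 (adjusted p by edgeR, 0.586), with non-silencing replicate 1 left out it was 0.30 (0.206), and without its fellow replicate 2 it was 0.40 (0.0651). Without ILF2 shRNA replicate 1 it was 0.53 (0.0011). It was not called by DESeq2 (adjusted p = 0.165) or by limma-voom (adjusted p = 0.0509) either. Its exons also overlap other genes. On the same strand 713 of 2875 bases (24.8%) are shared with ENSG00000267120, which had 0 or 1 fragment a library. Fragments in these shared bases may have been counted to neither gene, which was not tested. On the other strand 332 bases (11.5%) lie opposite PSENEN. The counts are strand-specific, and PSENEN had a log2 change of 0.11 (adjusted p by edgeR, 0.421).

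**Figure D3:**
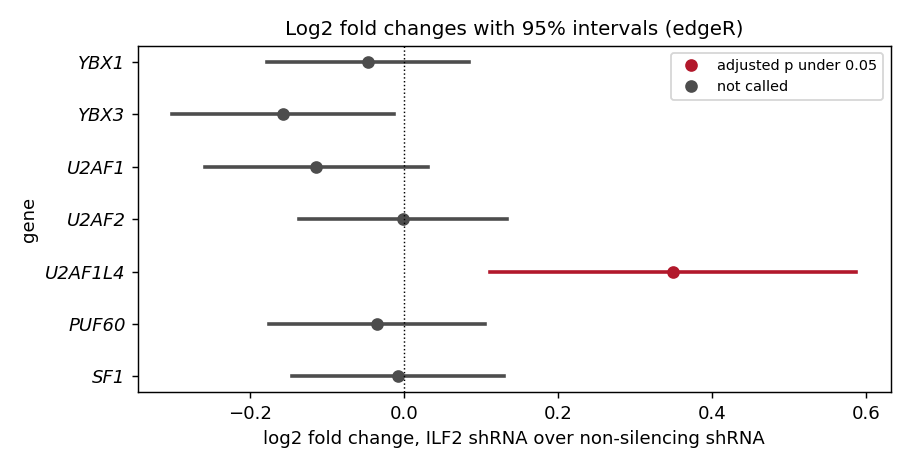
Log2 fold changes of ILF2 shRNA over non-silencing shRNA (horizontal axis) for the 7 genes, with 95% intervals from the edgeR fit. U2AF1L4 at 0.35 is the only gene called; the intervals of YBX1, U2AF1, U2AF2, PUF60 and SF1 include 0, and that of YBX3 ends just below 0 although its adjusted p is 0.12.

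SF1 and PUF60, which act beside the U2AF heterodimer, were not called. SF1 (ENSG00000168066, chromosome 11, 64532078 to 64546258, minus strand) had 146.8 and 152 CPM in ILF2 shRNA cells, between the 158 and 142 CPM of the non-silencing cells. Its log2 change was -0.0078 ± 0.07 (SE; adjusted p by edgeR, 0.956), with an interval of the fold from 0.904 to 1.09. PUF60 (ENSG00000179950, chromosome 8, 144898514 to 144912029, minus strand) had 87.9 and 96.4 CPM in ILF2 shRNA cells, against 96.3 and 92.6 CPM in non-silencing cells. These overlapped as well, with a log2 change of -0.04 ± 0.07 (SE; adjusted p by edgeR, 0.788) and an interval of the fold from 0.886 to 1.075.

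The gap between replicates moved with GC content in these libraries. Over 12400 genes of at least 1 log2 CPM, the log2 gap between ILF2 shRNA replicates 2 and 1 had a Pearson r of 0.56 with exonic GC content, and the gap between non-silencing replicates 1 and 2 one of 0.553. PUF60 and U2AF2, at 63.7% and 61.2% GC, were higher in ILF2 shRNA replicate 2 than in replicate 1 by 0.13 and 0.11 on the log2 scale. U2AF1 and YBX3, at 43.3% and 41% GC, were lower there by 0.07 and 0.03 (log2 gaps of -0.07 and -0.03). U2AF1L4 had a gap of 0.38 at 56% GC, while SF1 had 0.05 at 56.4% and YBX1 had -0.02 at 55.9%. Between non-silencing replicates 1 and 2 the gaps of these genes did not rank by GC content. They were 0.06 for PUF60, 0.03 for U2AF2, 0.15 for SF1 and -0.10 for U2AF1L4. YBX1 had -0.03 there, U2AF1 0.03 and YBX3 0.06. The part of GC content in each gene's result was not tested beyond the correction, after which U2AF1L4 stayed called (log2 change 0.35, adjusted p by edgeR, 0.0136).

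Levels of different genes were compared per kilobase of exon. The counted exons merge those of every annotated transcript of a gene, so 2 lengths were used, all merged exons and the bases of the canonical transcript that were counted. Per kilobase of merged exons, YBX1 had 178 ± 2.13 CPM in ILF2 shRNA and 184 ± 2.60 CPM in non-silencing cells (SD, n = 2). U2AF2 followed with 41.9 ± 2.303 and 41.9 ± 0.619 CPM per kilobase, then SF1 with 25.01 ± 0.604 and 25.1 ± 1.87, then PUF60 with 17.0 ± 1.11 and 17.4 ± 0.481. YBX3 had 6.24 ± 0.101 and 6.96 ± 0.205, U2AF1 had 4.60 ± 0.156 and 4.97 ± 0.084, and U2AF1L4 was lowest with 2.11 ± 0.395 and 1.66 ± 0.0797. Neighbours in this order differed by more than their spread.

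The place of U2AF1 in that order depends on the length. Its merged exons span 11112 bases and its canonical transcript 945. Per kilobase of the canonical transcript it had 54.1 ± 1.83 CPM in ILF2 shRNA and 58.5 ± 0.988 CPM in non-silencing cells (SD, n = 2), behind YBX1 and U2AF2 and ahead of PUF60. On that scale PUF60 had 49.3 ± 3.23 and 50.6 ± 1.397 CPM per kilobase and SF1 45.5 ± 1.10 and 45.7 ± 3.40. PUF60 was above SF1 in each of the 4 libraries, by little more than the spread between replicates. YBX3 followed with 28.02 ± 0.453 and 31.2 ± 0.921. YBX1 stayed first and U2AF1L4 last on both scales. Bases that U2AF1L4 shares with another gene were not taken out of its lengths, so its level may be understated.

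The balance within each pair was compared as a ratio per length of merged exons. YBX1 stood at 28.5 and 28.7 times YBX3 in ILF2 shRNA cells, against 25.7 and 27.3 times in non-silencing cells. Per length of the canonical transcript the same ratio was 8.09 and 8.14 against 7.30 and 7.76, and with pseudogenes summed, per merged exons, it was 42.4 and 41.9 against 38.0 and 40.4. The size of this ratio thus depends on what is counted and on the length. U2AF2 stood at 8.55 and 9.70 times U2AF1 in ILF2 shRNA cells, against 8.42 and 8.44 times in non-silencing cells. Per length of the canonical transcript it stood at 1.395 and 1.58 times in ILF2 shRNA cells, against 1.37 and 1.38 times in non-silencing cells. Both ratios were higher in both ILF2 shRNA libraries, by 0.11 on the log2 scale each with either length. The size of that difference moved with the library left out. For YBX1 to YBX3 only the non-silencing libraries mattered much, as the ILF2 shRNA replicates differed by 0.0089 on the log2 scale. For U2AF2 to U2AF1 it was 0.02 without ILF2 shRNA replicate 2 and 0.20 without ILF2 shRNA replicate 1. For YBX1 to YBX3 it was 0.06 with non-silencing replicate 1 left out and 0.15 with replicate 2 of that group left out. An exact two-sided permutation test over 4 libraries gave p = 0.3333 for both, the smallest it can give, so neither can pass 0.05.

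Related genes were described from 8 lists of 90 genes in all, of which 84 were tested. ILF2 itself, the target of the hairpin, is among these. The counts of risers and fallers stand beside 10.2% of all tested genes called higher and 10.1% lower by edgeR. Before adjustment these shares were 15.5% and 15.4%. Among the other Y-box and cold-shock genes 3 of 6 were tested, of which 0 rose and 1 fell (median -0.06). CSDC2, a cold-shock protein gene, fell to 4.52 ± 0.470 CPM in ILF2 shRNA cells, against 6.95 ± 0.648 CPM in non-silencing cells (SD, n = 2; log2 change -0.62, adjusted p by edgeR, 3.23e-05). The germ-line Y-box gene YBX2 (named to complete the Y-box family) had 4 and 1 fragments in ILF2 shRNA cells and 9 and 8 in non-silencing cells. Of 9 reported regulators of YB-1 (median -0.02), edgeR called 0 and DESeq2 also called 0, while 2 were higher and 1 lower before adjustment. AKT1, a kinase that phosphorylates YB-1, had a log2 change of -0.02 (adjusted p by edgeR, 0.886), and the arginine methyltransferase gene PRMT5 one of -0.07 (0.538).

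Genes reported as YB-1 targets in other cells went both ways. Of 10 tested, 2 rose and 5 fell, with a median log2 change of -0.21. CD44, a surface adhesion receptor gene, rose by 0.38 on the log2 scale, with 711 ± 0.452 CPM in ILF2 shRNA cells and 545 ± 28.4 CPM in non-silencing cells (SD, n = 2; adjusted p by edgeR, 7.76e-06). ABCB1, which encodes a drug efflux pump, had 36 and 29 fragments in ILF2 shRNA cells, against 7 and 9 in non-silencing cells. That is a log2 change of 2.14 ± 0.43 (SE; adjusted p by edgeR, 9.95e-05) at a very low level. The fallers were genes of the cell cycle and of growth signalling, but other such genes of the list were not called. These, named after their values were seen, were CCNB1 (-0.10, adjusted p by edgeR, 0.321), PCNA (-0.13, 0.202) and MET (0.17, 0.106). E2F1, a transcription factor gene of S phase entry, had a log2 change of -0.39 (adjusted p by edgeR, 1.28e-05), and the cyclin gene CCNA2 one of -0.39 (1.38e-05). The DNA polymerase gene POLA1 had one of -0.40 (1.48e-05) and the topoisomerase gene TOP2A one of -0.32 (0.000353). PIK3CA, a lipid kinase gene named after its values were seen because it completes the 5, had one of -0.30 (0.00456). With non-silencing replicate 2 left out, 3 of the list fell, and neither TOP2A (adjusted p = 0.162) nor PIK3CA (0.188) was called. PIK3CA was not called without ILF2 shRNA replicate 2 either (0.0788). DESeq2 called 1 higher, as it gave ABCB1 no adjusted p. The list was drawn from other cells and does not measure the activity of YB-1.

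Among 15 genes of cytoplasmic mRNA particles and stress granules, where YB-1 is found, 2 rose and 0 fell (edgeR; 4 and 0 before adjustment; median 0.08). PABPC4, a poly(A)-binding protein gene, had 756 ± 10.2 CPM in ILF2 shRNA cells and 591 ± 20.4 CPM in non-silencing cells (SD, n = 2; log2 change 0.36, adjusted p by edgeR, 2.78e-05). G3BP1, a stress granule scaffold gene, rose by 0.24 on the log2 scale (adjusted p by edgeR, 0.00535), a call lost when non-silencing replicate 1 (0.20, 0.254) or non-silencing replicate 2 (0.27, 0.0844) was left out. Of this list 1 rose when either non-silencing library was left out, and 4 when ILF2 shRNA replicate 2 was.

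Partners of U2AF at the intron's end showed small differences. Of 7 tested U2AF-related genes, edgeR and DESeq2 called 0 in either direction (median 0.02), with 0 higher and 1 lower before adjustment. UHMK1, a kinase gene with a U2AF-homology motif, had a log2 change of 0.03 (adjusted p by edgeR, 0.782) and RBM39, a splicing factor related to U2AF2, one of -0.14 (0.132). Once trends with GC content and exon length were taken out, 1 of these 7 was higher and RBM39 was lower (0.0304). That fit called 16.0% of all tested genes higher and 14.8% lower. Of 21 genes of the U2 snRNP and branch point, the particle that follows U2AF, 1 rose and 0 fell, with a median of -0.09 and a range from -0.19 to 0.24 (1 higher and 5 lower before adjustment). The riser was SF3B5, a small subunit of the SF3b complex, with 145.7 ± 11.7 CPM in ILF2 shRNA cells and 124 ± 4.25 CPM in non-silencing cells (SD, n = 2; log2 change 0.24, adjusted p by edgeR, 0.0094). It was not called when ILF2 shRNA replicate 2 (0.15, adjusted p = 0.172), non-silencing replicate 1 (0.27, 0.0817) or non-silencing replicate 2 (0.20, 0.25) was left out. Over the fits without 1 library the list had 0 to 2 risers and 0 or 1 fallers, and with the trends in GC content and length taken out it had 3 and 6. Of 14 genes for proteins that bind or compete at the pyrimidine tract, 0 rose and 1 fell (0 higher and 4 lower before adjustment). Values were below 0 in 13 of the 14 (median -0.08), against 9612 of all 19142 tested genes. RALY, a relative of hnRNP C, had a log2 change of -0.21 (adjusted p by edgeR, 0.0214), and was not called without ILF2 shRNA replicate 1 (0.093), non-silencing replicate 1 (0.436) or non-silencing replicate 2 (0.0786). Over these fits 0 or 1 of the list fell.

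**Figure D4:**
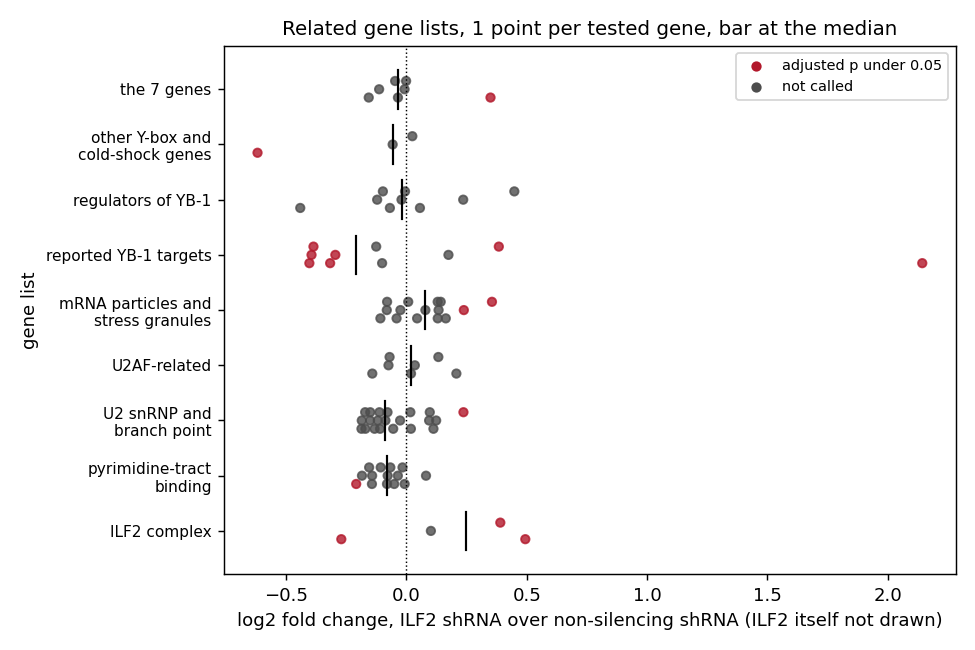
Log2 fold changes (horizontal axis) of the 7 genes and of 8 related lists, 1 point per tested gene, with a bar at the median of the points drawn and ILF2 itself left out. The U2AF-related, U2 snRNP and pyrimidine-tract genes lie between -0.21 and 0.24, and ABCB1 at 2.14 stands far right in the list of reported YB-1 targets.

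Genes of the ILF2 protein complex were also listed. ZFR, a relative of ILF2, rose by 0.49 on the log2 scale, with 234 ± 2.51 CPM in ILF2 shRNA cells and 166 ± 7.59 CPM in non-silencing cells (SD, n = 2; adjusted p by edgeR, 5.16e-08). DHX9, a helicase gene, had a log2 change of -0.27 (adjusted p by edgeR, 0.00153) and was not called without non-silencing replicate 2 (0.177).

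The pattern over the 4 libraries was set beside that of the 84 related genes, by the root-mean-square difference of log2 CPM centred on each gene's mean. SF3A3 was most like YBX1, at 0.0106, and DDX39B most like YBX3, at 0.0124. PATL1 was most like U2AF1 (0.0184), FXR2 most like U2AF2 (0.0239), AKT1 most like PUF60 (0.015) and SF3A1 most like SF1 (0.0182). U2AF1L4, whose ILF2 shRNA replicates differed by 0.38 on the log2 scale, had no close match, with SF3B5 nearest at 0.11. Genes that are nearly flat over the 4 libraries come out alike by this measure. Whether any of these genes share regulation was not tested.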

How the data were processed

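The deposited values are fragment counts for each gene, raw and on a whole-number scale. Per the file headers, featureCounts of Subread 1.4.6-p2 made them from Ensembl release 75 of GRCh37, with strand setting 2 and exons summed by gene. The submitters' processing notes name STAR 2.3.0 and SAMtools 0.1.19, while the design text names Tophat2. No option for fragments with several places is recorded. Exon lengths (an other unit, bases) were also deposited. Genes were matched to GENCODE symbols by ID (55665 of 63677).

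The robust quasi-likelihood test of edgeR 4.0.16 (two-sided, under R 4.3.3) was run after TMM scaling and the filterByExpr filter (minimum count 10). The model held group alone, and p-values of 19142 genes were adjusted by Benjamini-Hochberg. CPM uses TMM-scaled library sizes. Intervals are at 95% and use the fit's degrees of freedom. Replicates differed beyond counting noise (mean chi-square per gene 18.4 between ILF2 shRNA and 9.06 between non-silencing libraries). On simulated counts of 19142 genes for this comparison, 24% of 50 genes of at least 1 CPM with a log2 change of 0.25 were recovered, 78% at 0.5 and 100% at 1 or 2, and 9 of 160 calls were unchanged genes. The simulation gave 160 calls where the data gave 3885, which makes its adjustment stricter. Its counts also held no gap between replicates that moves with GC content. The recovered shares therefore need not hold for the real libraries. The 7 genes and the lists were chosen with earlier results of these data known. Named were the 7, ILF2, and up to 6 called genes of each list, or the 2 most abundant where none was called; others are marked. A gene under this rule is not reported here. Alternatives were DESeq2 1.42.0, limma-voom (limma 3.58.1), other size factors and filters, removal of mitochondrial and abundant small RNAs, a replicate block and leaving out each library. Added after seeing the data were a GC and length correction (mgcv 1.9.3), pseudogenes summed with their parents, and ratios by canonical transcript length.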

Additional observations from a re-analysis of the deposited data

How the results depend on the processing

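With 14 alternative settings, YBX1 and U2AF1 kept their direction and were not called in any. U2AF1L4 stayed positive in all 14 and lost its call in 6: DESeq2 (0.35), limma-voom (0.34), the replicate block (0.34, adjusted p by edgeR, 0.071) and 3 of the 4 fits without 1 library. The 4 values ran from 0.14 to 0.53, the highest being the 1 that stayed called. So 0 of the 7 were higher in those 6 settings, where 5.15% to 9.88% of genes were. YBX3 was called lower (-0.14) after the correction for GC and length, which was chosen after seeing the data, so that 1 of the 7 was lower there. Values near 0 changed sign: after that correction U2AF2 was 0.0357, PUF60 0.0282, SF1 0.0004 and AKT1 0.0529. Without 1 library at a time U2AF2 ran from -0.0587 to 0.0565, PUF60 from -0.10 to 0.0327, SF1 from -0.0816 to 0.0692, AKT1 from -0.10 to 0.0613, PRMT5 from -0.15 to 0.0064 and UHMK1 from -0.0467 to 0.11. Genes called higher numbered 1960, or 1291 with the replicate block, 3057 after the correction and 1029 to 1899 without 1 library. Genes called lower numbered 1925, or 1261 by DESeq2 and 1070 to 1822 without 1 library. Of the 84 related genes tested 7 rose and 9 fell, beside 10.2% and 10.1% of all tested genes. After the correction 17 rose and 20 fell, beside 16.0% and 14.8% of all tested genes. The fallers include ILF2, the target of the hairpin, both before and after the correction. The causes were not tested. Same-numbered replicates did not deviate together over all tested genes (r = -0.02). Trends with GC content, opposite for same-numbered replicates, were not taken out of this r. It therefore cannot decide whether the numbers pair the libraries, and the main model held no pairing. Over 12400 genes of at least 1 log2 CPM, ILF2 shRNA replicate 2 and non-silencing replicate 1 each shifted with GC content against their fellow replicate (Pearson r of 0.56 and 0.553). DESeq2 gave ABCB1 no adjusted p. The replicate block also ended the calls of G3BP1 (0.0646), SF3B5 (0.0974) and RALY (0.154). The ratios without length scaling were not computed. The canonical transcript length, chosen after seeing the data, left their group differences at 0.11. Depth allows little precision for ABCB1.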
